A study of Mus musculus with 6 samples.

Results

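The genes described here carry pyruvate into mitochondria and turn it through the tricarboxylic acid (TCA) cycle. They were 37 of the 55401 genes in the deposited table, chosen by name: the pyruvate carrier, the pyruvate dehydrogenase complex with its kinases and phosphatases, pyruvate carboxylase, malic enzymes, cycle enzymes with complex II, and ATP citrate lyase. Not every enzyme of the cycle is on the list. Their mRNA was measured by RNA sequencing in bEnd.3 cells, a wild-type mouse endothelial line grown in high-glucose medium. Cells called mitochondria here were incubated for 24 h with a preparation of mitochondria in 100 ul of medium, taken from the MLO-Y4 mouse line, which resembles osteocytes. Cells called control received only the same amount of medium. Each group had 3 libraries. The study asked what mitochondria from osteocytes do to endothelial cells. Both lines are mouse, so any mRNA carried over with the isolated mitochondria cannot be told apart from the cells' own, and in such bulk libraries fewer cells of a type and less RNA per cell cannot be told apart either.

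Pyruvate, the end product of glycolysis, crosses the inner mitochondrial membrane through a carrier made of MPC1 and MPC2. Inside, the pyruvate dehydrogenase complex turns it into acetyl-CoA, and kinases of the PDK family switch the complex off by phosphorylation while phosphatases switch it on again. Citrate synthase then joins acetyl-CoA to oxaloacetate, and the cycle oxidises the product step by step, yielding NADH and, at succinate dehydrogenase, electrons for the respiratory chain. Endothelial cells are known to make much of their ATP by glycolysis, and the cycle serves them largely for biosynthesis.

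The libraries were deep and much alike, with totals of 65394770 to 73376834 estimated counts and Pearson correlations of log2(FPKM + 1) of 0.975 to 0.983 within groups and 0.968 to 0.981 between them. The endothelial label was borne out only in part. Of 12 endothelial markers 4 passed the expression filter, Flt1, Eng, Tie1 and Egfl7. Cldn5 was listed at 0 in all 6 libraries, Pecam1 was at or below 0.201 FPKM and Cdh5 at or below 0.172 FPKM. Summed CPM of that list was 847, 824 and 892 in mitochondria libraries and 812, 759 and 785 in control libraries. Most of each sum was Flt1 and Eng, which went opposite ways. Flt1 had 506, 464 and 551 CPM against 430, 334 and 433 CPM, and Eng 268, 284 and 265 CPM against 316, 361 and 288 CPM. All 4 tested markers separated the groups in CPM, 3 higher and 1 lower with mitochondria, beside 21.4% of all genes tested. Of these 4, edgeR called 0 and DESeq2 called 1, Tie1, beside 2.82% of all genes. Osteocyte markers summed to 3.52, 3.52 and 3.55 CPM in mitochondria libraries and 2.92, 4.16 and 2.31 CPM in control libraries, with Dmp1, Mepe and Ibsp listed at 0 throughout. Most of each sum was Fgf23, at 3.34, 3.27 and 2.82 CPM in mitochondria libraries and 2.70, 3.83 and 2.19 CPM in control libraries. Summed pancreatic acinar markers, 19 genes, differed between the groups, with 61.0, 59.0 and 55.0 CPM in mitochondria libraries and 208, 260 and 158 CPM in control libraries. Nearly all of the mitochondria sums was Cela1, at 59.3, 57.4 and 53.7 CPM, against 65.5, 74.9 and 57.6 CPM in control libraries. Most of the others were at 0 in every mitochondria library, such as Ctrb1, which had 27.8, 43.5 and 23.0 CPM in control libraries. Summed hepatocyte markers, 13 genes, were at 2.49, 43.3 and 36.9 CPM in mitochondria libraries and at 45.9, 59.1 and 49.9 CPM in control libraries. Macrophage markers summed to 26.1 to 37.7 CPM and 19.9 to 34.0 CPM in mitochondria and control libraries, and mural markers to 123 to 168 CPM and 129 to 217 CPM. Of the macrophage list, Ptprc, Adgre1 and Itgam stayed at or below 0.0294 FPKM in every library. Of the mural list, Rgs5 and Cspg4 stayed at or below 0.0704 FPKM.

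As a whole the pathway was expressed at nearly the same level with and without added mitochondria. The 37 genes summed to 932, 908 and 922 FPKM (the deposited level, per transcript length and library size) in mitochondria libraries and to 900, 898 and 951 FPKM in control libraries. Of the 37 genes 36 passed the filter of a mean FPKM of at least 1, and 0 of them were called by the quasi-likelihood test of edgeR at a Benjamini-Hochberg adjusted p under 0.05. Over all 12774 genes tested 0.164% were called, 0.0626% higher and 0.102% lower with mitochondria, and 0% with the replicate number as a block (0 genes against 21 without it). At an unadjusted p under 0.05 there were 6 of the 36, beside 13% of all genes tested, with 3 higher (6.79% of all) and 3 lower (6.24% of all). DESeq2 called 1 of the 36, Pdk1, which was higher, beside 2.82% of all genes in either direction, 1.62% higher and 1.2% lower. The limma fit on log2(FPKM + 1) called 0 of the 36.

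Fitted changes below 0 outnumbered those above 0, while the share of these genes in all FPKM lay slightly the other way. That share was 0.288%, 0.286% and 0.285% in mitochondria libraries, against 0.275%, 0.278% and 0.284% in control libraries. Of the 36 genes 13 had a positive log2 fold change (36.1%, against 49.6% of all genes tested), and their median log2 fold change was -0.043, against -0.0016 over all genes. Without control replicate 3 that median was -0.0068. A log2 fold change within 0.1 of no difference was found for 25 of the 36 (69.4%), and for 47.9% of all genes tested. The edgeR 95% interval of the fold change lay within 1.5-fold either way for 32 of the 36 genes and within 1.25-fold for 25. It included no difference for 30. The 3 mitochondria libraries lay wholly above or wholly below the 3 control libraries, in CPM (counts scaled to library size), for 8 of the 36, beside 21.4% of all genes tested. Pdk1, Idh2 and Idh3b lay above, while Mpc1, Pdk3, Pdpr, Sucla2 and Sdhb lay below. Acinar markers moved with the groups, while hepatocyte markers were low mainly in mitochondria replicate 1 and 0 of their 5 tested genes separated the groups. With the genes of both lists left out of the fit, the median of the 36 was the same to 2 digits, -0.043, with 13 positive.

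**Figure D1:**
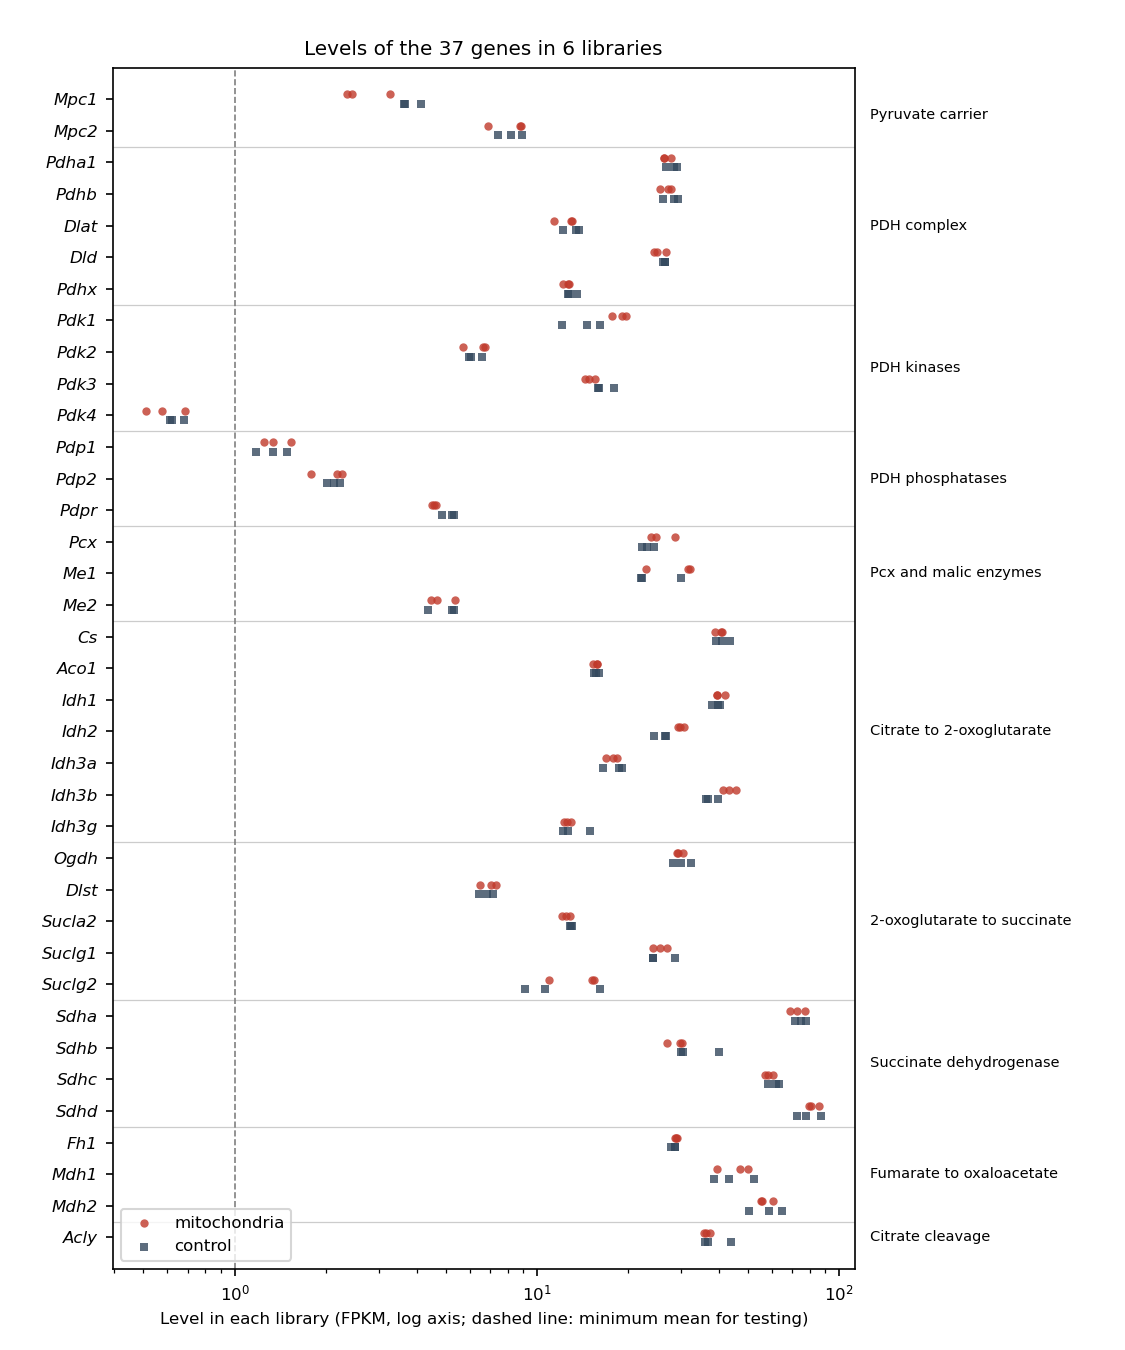
Level of each of the 37 genes in each library, in FPKM on a log axis, grouped by role, with circles for mitochondria and squares for control libraries. Levels run from 0.511 FPKM for Pdk4 to 87.2 FPKM for Sdhd, and in most rows the 2 groups overlap.

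**Figure D2:**
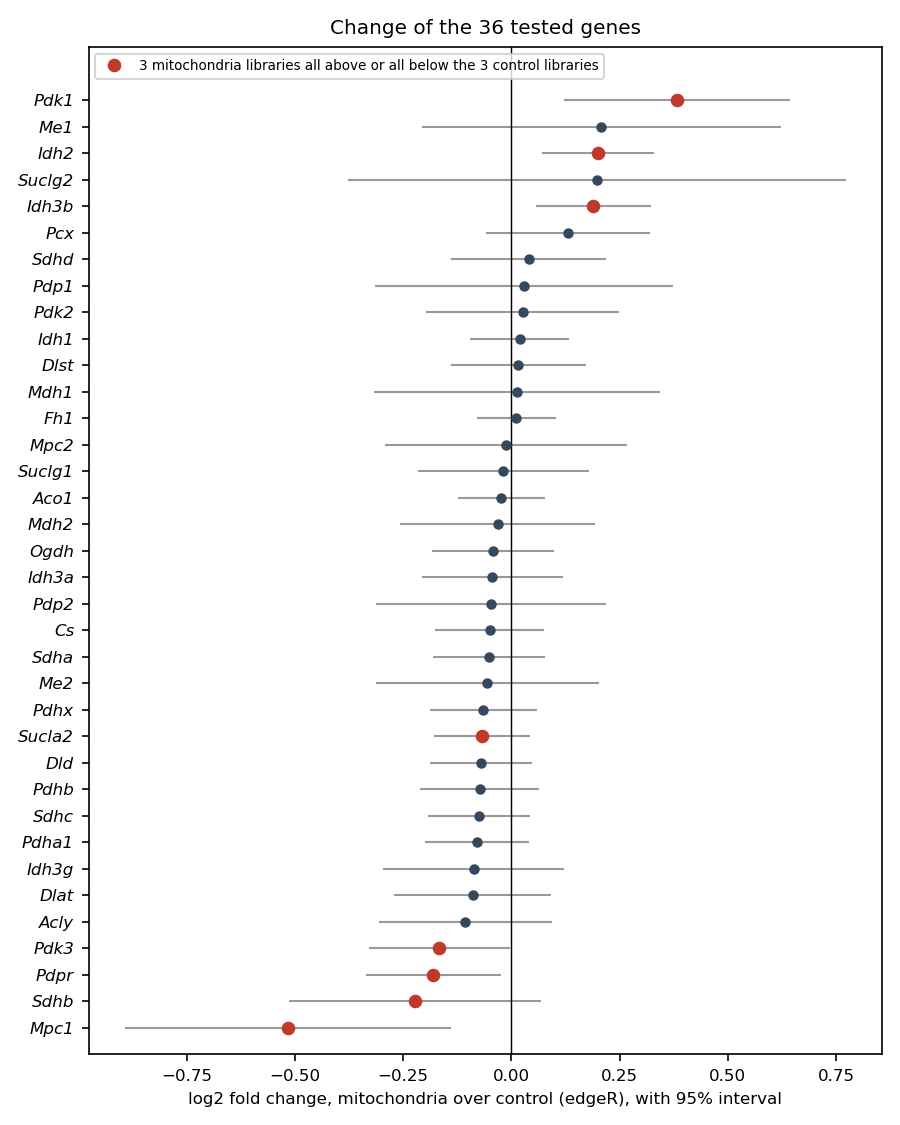
Fitted log2 fold change of mitochondria over control for the 36 tested genes, with the edgeR 95% interval as bars; red points mark the 8 genes whose groups did not overlap in CPM. Pdk1 stands at the upper end with 0.38 and Mpc1 at the lower end with -0.52, and 25 of the 36 points lie within 0.1 of 0.

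Levels differed far more between the genes than between the groups. In mean FPKM over the 6 libraries the order began with Sdhd at 80.5, Sdha at 73.6, Sdhc at 59.7 and Mdh2 at 57.4. The low end was Mpc1 at 3.25 (a level made uncertain by a near-identical copy, described below), then Pdp2, Pdp1 at 1.36 and Pdk4 at 0.613 FPKM. Neighbours in this order often did not differ beyond their spread: Cs averaged 40.6 and Idh3b 40.5 FPKM, and Pdha1 averaged 27.5 and Pdhb 27.3 FPKM.

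The pyruvate carrier came first in the pathway and held the gene with the largest fitted decrease of the 36. Mpc1 (ENSMUSG00000023861, chromosome 17, 8282904 to 8297661 in GRCm38) encodes a carrier subunit and had 2.44, 3.26 and 2.36 FPKM in mitochondria libraries, against 4.13, 3.63 and 3.68 FPKM in control libraries. All mitochondria values were below all control values. The fitted fold was 0.699 (95% interval 0.538 to 0.908), with an edgeR unadjusted p of 0.015 that did not pass adjustment (adjusted p = 0.292). Leaving out 1 library at a time gave log2 fold changes of -0.68 to -0.42. Mpc2, its partner subunit, had 8.80, 6.90 and 8.85 FPKM in mitochondria libraries and 8.22, 7.42 and 8.90 FPKM in control libraries, so the groups overlapped (edgeR log2 fold change -0.012, adjusted p = 0.975).

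Reads of Mpc1 are uncertain because a near-identical copy also has counts. How the counting divided reads between Mpc1 and the copy is not known, so expression of the copy itself is not shown. Mpc1-ps, a processed pseudogene, matches the Mpc1 transcripts at 99.7% over 330 bases and held 108% of the counts of Mpc1 on average. Its counts were 634, 580 and 365 in mitochondria libraries and 571, 763 and 537 in control libraries, where Mpc1 itself had 405, 529 and 362 counts and 697, 626 and 565 counts. The copy was not called by edgeR (log2 fold change -0.22, adjusted p = 0.697). With its counts added to Mpc1, the log2 fold change was -0.36 instead of -0.52 (edgeR adjusted p = 0.376), in an alternative added after seeing the data.

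All subunits of the pyruvate dehydrogenase complex had slightly lower fitted levels with mitochondria, none of them past a threshold. The log2 fold changes of Pdha1, Pdhb, Dlat, Dld and Pdhx lay between -0.089 and -0.064 and were below 0 under all 19 alternatives. None of the 5 had an unadjusted p under 0.05 by edgeR, and in each the groups overlapped. Pdha1 encodes the alpha subunit of the decarboxylating enzyme, which the kinases phosphorylate. It had 26.3, 26.4 and 27.9 FPKM in mitochondria libraries, against 29.1, 26.7 and 28.5 FPKM in control libraries, with a fold of 0.947 (95% interval 0.871 to 1.03, edgeR adjusted p = 0.55). Control replicate 2 lay within the mitochondria range. Mean levels were alike for Pdhb (the beta subunit, 26.8 against 27.9 FPKM) and Dld, the lipoamide dehydrogenase shared with other complexes (25.3 against 26.4 FPKM). Dlat, the acetyltransferase core, averaged 12.5 against 13.1 FPKM, and Pdhx, which anchors Dld to that core, 12.5 against 13.0 FPKM. The ratio of Pdha1 to Pdhb was 1.0 ± 0.030 in mitochondria libraries and 1.01 ± 0.011 in control libraries (SD, n = 3 each), so the subunits of the decarboxylating enzyme kept near-equal levels.

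Among the kinases that switch the complex off, Pdk1 and Pdk3 separated the groups in opposite directions, though edgeR called neither. Pdk1 (ENSMUSG00000006494, chromosome 2, 71873224 to 71903858) had 17.8, 19.1 and 19.7 FPKM in mitochondria libraries, against 16.2, 12.1 and 14.7 FPKM in control libraries. Every mitochondria library was above every control library, and control replicate 2 was the lowest. The fold was 1.30 (95% interval 1.09 to 1.56), with an unadjusted edgeR p of 0.011 and an adjusted p of 0.277, while DESeq2 gave an adjusted p of 0.0493. Without control replicate 2 the log2 fold change was 0.27, against 0.38 with all libraries, and without control replicate 1 it was 0.48.

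Pdk3 (ENSMUSG00000035232, chromosome X, 93764607 to 93832201), an X-linked member of the family, had 14.5, 14.9 and 15.6 FPKM in mitochondria libraries, against 16.1, 18.0 and 15.9 FPKM in control libraries. Here every mitochondria library was below every control library, the nearest being 15.6 and 15.9 FPKM. The fold was 0.891 (95% interval 0.796 to 0.997; unadjusted p = 0.046, edgeR adjusted p = 0.376). Without control replicate 2 its log2 fold change was -0.11 instead of -0.17.

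Pdk2, a widely expressed kinase, had 6.63, 6.75 and 5.71 FPKM in mitochondria libraries and 5.96, 6.58 and 6.05 FPKM in control libraries, with overlapping groups (edgeR log2 fold change 0.026, adjusted p = 0.929). Pdk4, the kinase known to be induced by fasting and fatty acids, had 0.576, 0.511 and 0.684 FPKM in mitochondria libraries and 0.619, 0.679 and 0.61 FPKM in control libraries. It did not pass the expression filter and was not tested.

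Together the kinases were slightly more abundant with mitochondria, at 39.4, 41.2 and 41.7 summed FPKM, against 38.9, 37.4 and 37.3 summed FPKM in control libraries. Pdk1 made up 45.0%, 46.2% and 47.2% of this sum in mitochondria libraries and 41.6%, 32.3% and 39.4% in control libraries. The share of Pdk3 was 36.7%, 36.1% and 37.4% in mitochondria libraries and 41.4%, 48.2% and 42.7% in control libraries. The FPKM ratio of Pdk1 to Pdk3 was therefore 1.23, 1.28 and 1.26 with mitochondria, and 1.0, 0.67 and 0.92 in control cells. Relative to Pdha1, the phosphorylated subunit, the summed kinases stood at 1.52 ± 0.039 in mitochondria libraries and 1.35 ± 0.047 in control libraries (SD, n = 3 each). Relative to the catalytic phosphatases, Pdp1 plus Pdp2, the summed kinases overlapped between the groups. That ratio was 11.8, 11.7 and 11.9 in mitochondria libraries and 12.1, 10.3 and 10.4 in control libraries, with control replicate 1 the highest of all. These sums and ratios were formed after the values of Pdk1 and Pdk3 were known and are given without a test.

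**Figure D3:**
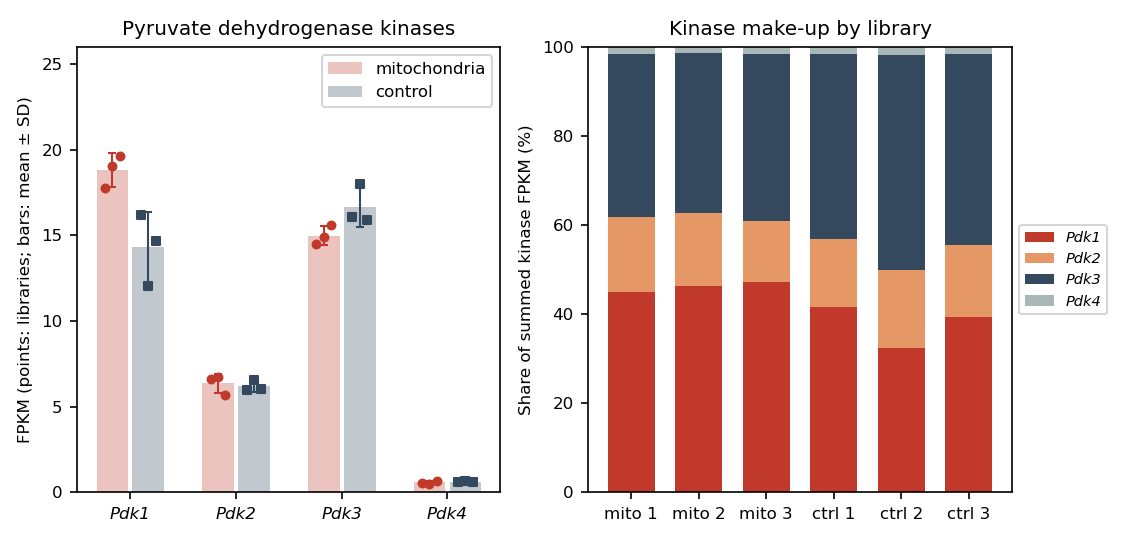
Left, FPKM of the 4 kinase genes in each library, with bars for the group mean and error bars for the SD of 3 libraries. Right, each kinase as a percentage of summed kinase FPKM, by library: Pdk1 takes 45.0% to 47.2% in the mitochondria libraries (mito) and 32.3% to 41.6% in the control libraries (ctrl).

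The promoters of these 2 kinases are shown because their genes had opposite fitted changes. The bases are those before both the RefSeq start and the deposited start of the gene, from RefSeq in GRCm38.p6, written 5' to 3' on the strand of the gene, with capitals for CG pairs. For Pdk1 they are 250 bases (chr2:71872974-71873223, plus strand) with 19 CG pairs and a GC content of 64%, and for Pdk3 199 bases (chrX:93832202-93832400, minus strand) with 22 CG pairs and a GC content of 66.3%.
Pdk1: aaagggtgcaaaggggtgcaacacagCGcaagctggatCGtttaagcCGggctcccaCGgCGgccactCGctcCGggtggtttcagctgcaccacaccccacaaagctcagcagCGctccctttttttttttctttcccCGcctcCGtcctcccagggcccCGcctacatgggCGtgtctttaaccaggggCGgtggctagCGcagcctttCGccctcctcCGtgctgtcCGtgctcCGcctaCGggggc
Pdk3: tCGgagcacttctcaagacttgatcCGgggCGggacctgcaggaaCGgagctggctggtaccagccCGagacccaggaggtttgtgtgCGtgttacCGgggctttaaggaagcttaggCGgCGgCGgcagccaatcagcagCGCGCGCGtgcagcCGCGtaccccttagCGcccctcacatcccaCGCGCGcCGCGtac
Both are thus rich in CG pairs. RefSeq promoters matched 33 of the 37 genes, with a median GC content of 62.4% in the 250 bases before the start, against 60.4% over tested genes. The letters ACGTG, a form of the core of the hypoxia response element, were searched in those bases on both strands. They were held by 11 of the 33 (33.3%), against 22.6% of tested genes and 17.4% of all genes with a promoter. Pdk3 held them once, at 53 bases before its RefSeq start, where they span the deposited start and so are not printed in full, and Pdk1 did not hold them. Another form of the core, GCGTG, was not searched. It can be read in the printed bases of both kinases, so no count here covers the whole element core. AAGGTCA, letters bound by estrogen-related receptors, was in 0 of the 33 (2.47% of tested genes). A match is a run of letters, not a site shown to be bound.

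On the opposing side, the phosphatases were expressed at low levels. Pdpr, which encodes the regulatory subunit of pyruvate dehydrogenase phosphatase (ENSMUSG00000033624, chromosome 8, 111094630 to 111137074), had 4.65, 4.50 and 4.57 FPKM in mitochondria libraries, against 5.24, 4.85 and 5.33 FPKM in control libraries. No library of either group reached into the other's range. Its fold was 0.882 (95% interval 0.792 to 0.983; unadjusted p = 0.0297, edgeR adjusted p = 0.338). The catalytic subunits Pdp1 and Pdp2 summed to 3.46 ± 0.11 FPKM in mitochondria libraries and 3.47 ± 0.23 FPKM in control libraries (SD, n = 3 each), with log2 fold changes of 0.028 and -0.047.

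Other routes for pyruvate and malate gave values with wide spread. Pcx, pyruvate carboxylase, which makes oxaloacetate and so refills the cycle, had 24.8, 28.5 and 23.9 FPKM in mitochondria libraries, against 24.5, 23.2 and 22.3 FPKM in control libraries. Mitochondria replicate 2 was the highest, the groups overlapped, and the fold was 1.09 (95% interval 0.961 to 1.25, edgeR adjusted p = 0.526). Without that library its log2 fold change was 0.050 instead of 0.13. Pcx shares its locus with Lrfn4 on the other strand, at 10.8 FPKM, and the strand setting of the counting is not given in the sources used here. Me1, the cytosolic malic enzyme, had 32.0, 22.9 and 31.6 FPKM in mitochondria libraries and 22.0, 29.9 and 22.3 FPKM in control libraries, so replicate 2 of each group went against the other 2 of its group. Its fold of 1.16 had a 95% interval of 0.867 to 1.54 (edgeR adjusted p = 0.643). Me2, the mitochondrial malic enzyme, had a log2 fold change of -0.056 at a mean of 4.91 FPKM.

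From citrate to 2-oxoglutarate, 2 isocitrate dehydrogenase genes stood higher with mitochondria and the other 5 genes hardly differed. Cs, citrate synthase, had 40.6, 38.7 and 41.1 FPKM in mitochondria libraries, against 41.1, 39.0 and 43.5 FPKM in control libraries, with overlapping groups (edgeR log2 fold change -0.050, adjusted p = 0.724). Idh2 (ENSMUSG00000030541, chromosome 7, 80094846 to 80115392) encodes the mitochondrial NADP-dependent enzyme, a source of NADPH. It had 29.8, 30.7 and 29.3 FPKM in mitochondria libraries, against 26.5, 24.3 and 26.7 FPKM in control libraries, and each mitochondria value was above each control value. Of the 36 genes it had the smallest edgeR p, 0.00862 unadjusted and 0.261 adjusted, with a fold of 1.15 (95% interval 1.05 to 1.26).

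Idh3b (ENSMUSG00000027406, chromosome 2, 130279309 to 130284547), the beta subunit of the NAD-dependent enzyme of the cycle, had 41.2, 43.0 and 45.7 FPKM in mitochondria libraries, against 36.4, 36.9 and 39.6 FPKM in control libraries. Its groups did not overlap either, and the fold was 1.14 (95% interval 1.04 to 1.25; unadjusted p = 0.0128, edgeR adjusted p = 0.285). The other subunits of that enzyme, Idh3a and Idh3g, had log2 fold changes of -0.044 and -0.087, and the FPKM ratio of Idh3b to Idh3a was 2.45 ± 0.18 in mitochondria libraries and 2.08 ± 0.14 in control libraries (SD, n = 3 each). Idh3b overlaps Nop56 on the other strand, which had 22.8 FPKM and an edgeR adjusted p of 0.983. In the cytosol, Idh1, which makes NADPH, and Aco1, the cytosolic aconitase, had log2 fold changes of 0.019 and -0.023. The FPKM ratio of Idh1 to Idh2 was 1.41, 1.28 and 1.34 in mitochondria libraries and 1.43, 1.64 and 1.51 in control libraries.

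Between 2-oxoglutarate and succinate no gene had an edgeR p under 0.05 before adjustment. Ogdh, the dehydrogenase subunit that decarboxylates 2-oxoglutarate, had 29.3, 29.0 and 30.5 FPKM in mitochondria libraries, against 30.0, 28.2 and 32.4 FPKM in control libraries. Its groups overlapped (edgeR log2 fold change -0.042, adjusted p = 0.793), and Dlst, the succinyltransferase of the same complex, had a log2 fold change of 0.016. Sucla2, the subunit that makes succinyl-CoA synthetase form ATP, had 12.8, 12.1 and 12.5 FPKM in mitochondria libraries, against 12.8, 13.0 and 13.1 FPKM in control libraries. The groups touched without overlapping, and the fold was 0.954 (95% interval 0.884 to 1.03, edgeR adjusted p = 0.571). Suclg1, the subunit common to both forms of that enzyme, had a log2 fold change of -0.019. Suclg2, the subunit of the GTP-forming enzyme, ranged from 10.9 to 15.4 FPKM in mitochondria libraries and from 9.15 to 16.2 FPKM in control libraries. It had the widest 95% interval of the 36, 0.769 to 1.71 around a fold of 1.15, and a processed pseudogene, Gm15163, which matches it at 98.9% over 1302 bases, held 18.1% of its counts.

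Succinate dehydrogenase, which is also complex II of the respiratory chain, had 3 subunits, Sdhd, Sdha and Sdhc, that were the most abundant mRNAs of the list. Sdhd, a membrane anchor, had 80.8, 79.3 and 85.8 FPKM in mitochondria libraries, against 77.3, 72.6 and 87.2 FPKM in control libraries, with overlapping groups (edgeR log2 fold change 0.040, adjusted p = 0.855). Sdhb, the iron-sulfur subunit, had 30.2, 29.7 and 26.8 FPKM in mitochondria libraries, against 30.4, 30.0 and 39.9 FPKM in control libraries. Control replicate 3 lay far above the rest, and without it the log2 fold change of Sdhb was -0.078 instead of -0.22 (edgeR adjusted p = 0.487 with all libraries). In FPKM its groups overlapped, while in CPM the nearest libraries were at 76.3 in mitochondria and 76.4 in control. Sdha, the flavoprotein, and Sdhc, the other anchor, had log2 fold changes of -0.051 and -0.075.

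**Figure D4:**
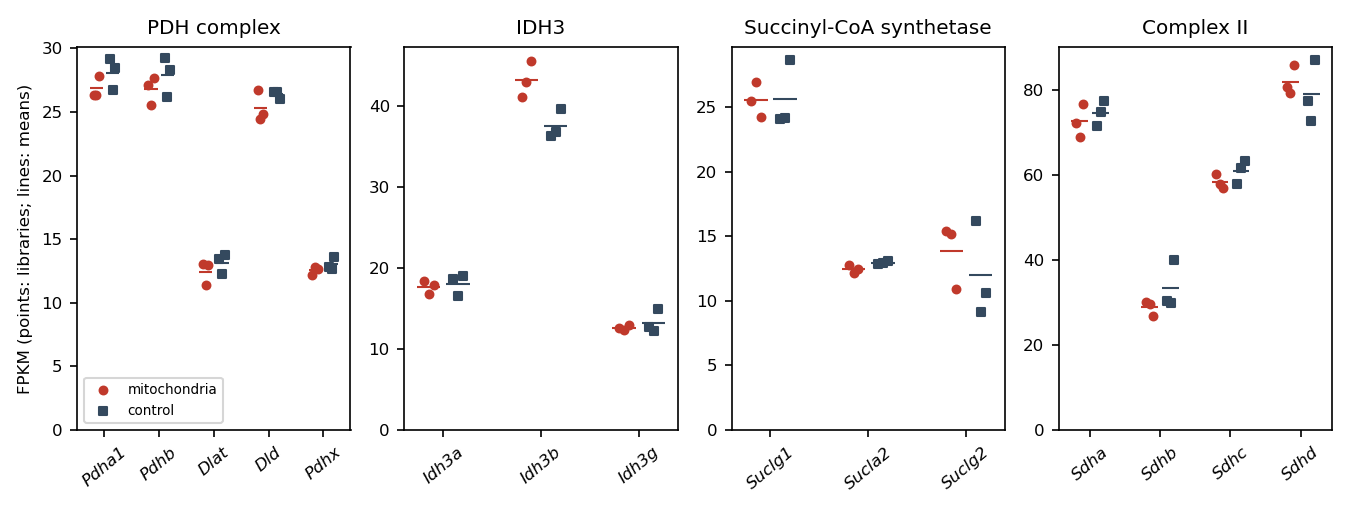
FPKM in each library for the subunits of pyruvate dehydrogenase, NAD-dependent isocitrate dehydrogenase (IDH3), succinyl-CoA synthetase and complex II, with short lines at the group means. Among the subunits of each enzyme, Idh3b alone separates the groups clearly, with 41.2 to 45.7 FPKM in mitochondria and 36.4 to 39.6 FPKM in control libraries. Relative to its level, Suclg2 spreads most within groups.

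The last steps, from fumarate to oxaloacetate, had the smallest fitted differences of any role group. Fh1, fumarate hydratase, ranged over 28.7 to 29.0 FPKM in mitochondria libraries and 27.7 to 28.6 FPKM in control libraries, with an edgeR 95% interval of the fold of 0.946 to 1.07 around 1.01; these groups were apart in FPKM but overlapped in CPM. Mdh2, the mitochondrial malate dehydrogenase, had 60.4, 55.2 and 55.4 FPKM in mitochondria libraries, against 58.3, 50.4 and 64.6 FPKM in control libraries, and the control values enclosed those with mitochondria (edgeR log2 fold change -0.032, adjusted p = 0.912). Mdh1, the cytosolic enzyme of the malate-aspartate shuttle, had a log2 fold change of 0.013 with a 95% interval of the fold of 0.803 to 1.27. Acly, which cleaves exported citrate into cytosolic acetyl-CoA, had 36.2, 35.6 and 37.4 FPKM in mitochondria libraries, against 35.9, 43.9 and 36.7 FPKM in control libraries. Its fitted log2 fold change of -0.11 (edgeR adjusted p = 0.627) was -0.0070 without control replicate 2.

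Some single libraries were often the highest or the lowest over these genes. How much of the variation lay with libraries and how much with the groups was not tested. Control replicate 3 was the highest of the 6 libraries for 15 of the 36 genes (16.5% of all genes tested), and control replicate 2 was the lowest for 11 (20.9% of all). Mitochondria replicate 2 was the lowest for 10 of the 36 (19.1% of all). Among the genes that stood higher with mitochondria, Pdk1 and Idh2 had their lowest CPM in control replicate 2, and Idh3b had it in control replicate 1.

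**Figure D5:**
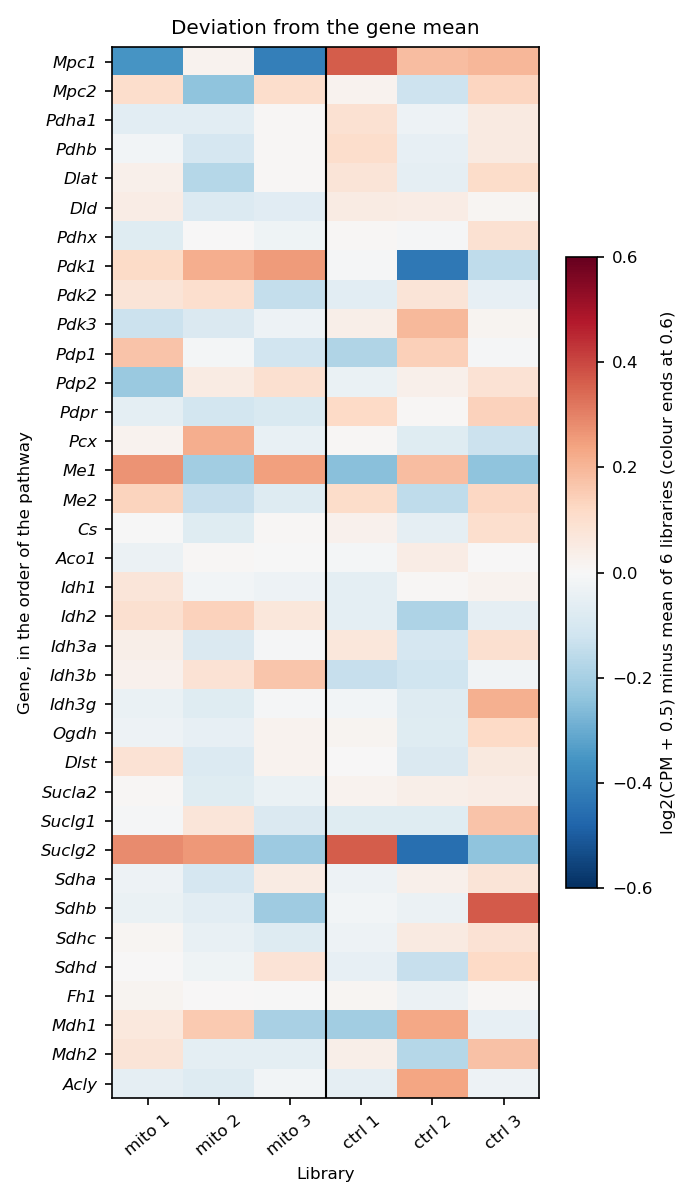
Deviation of log2(CPM + 0.5) from the mean of the 6 libraries for each of the 36 tested genes (rows) in each library (columns; mito, mitochondria; ctrl, control). Red is above and blue below the gene's mean; control replicate 3 is red in many rows, being the highest library for 15 genes, and Pdk1 is blue in control replicates 2 and 3.

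Around the cycle, 48 further genes of 8 neighbouring lists were examined, of which 41 were tested and 0 were called by edgeR, while DESeq2 called 2, both higher, beside 2.82% of all genes tested. At an unadjusted p under 0.05 there were 7 of the 41, 4 higher and 3 lower, near the 13% of all genes tested (6.79% higher and 6.24% lower), and their median log2 fold change was 0.022. Of those 7 genes the largest fold change was in the list for pyruvate and lactate in the cytosol. Slc16a3, the lactate exporter MCT4, had 79.3, 77.6 and 83.0 FPKM in mitochondria libraries, against 60.5, 44.2 and 59.9 FPKM in control libraries. Its fold was 1.45 (95% interval 1.18 to 1.77), with an adjusted p of 0.244 by edgeR and of 0.00349 by DESeq2. Ldha, which reduces pyruvate to lactate, had 362, 338 and 351 FPKM in mitochondria libraries, against 283, 216 and 289 FPKM in control libraries (fold 1.32, adjusted p = 0.274 by edgeR and 0.0332 by DESeq2). Both separated the groups, with control replicate 2 lowest, as for Pdk1. The FPKM ratio of Ldha to Pdha1, the mRNA of 1 subunit of pyruvate dehydrogenase, was 13.7, 12.8 and 12.6 in mitochondria libraries. In control libraries it was 9.70, 8.08 and 10.1. The fold of Pdha1 was 0.947, so this ratio largely repeats the values of Ldha, and it was not tested. Ldhb, in the same list, had a fold of 0.944 with overlapping groups. Of the 5 tested genes in that list 3 did not overlap between groups, all higher, beside 21.4% of all genes tested in either direction and 10.8% higher.

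In the list for amino acid entry, DESeq2 and edgeR called 0 of 7 tested genes. Gpt, a cytosolic alanine aminotransferase, averaged 11.2 ± 1.3 FPKM and 8.27 ± 1.3 FPKM in mitochondria and control libraries (SD, n = 3 each; unadjusted p = 0.0193, edgeR adjusted p = 0.304). Among genes for cytosolic acetyl-CoA, 1 of 3 tested had an unadjusted edgeR p under 0.05, Acaca, acetyl-CoA carboxylase, with a log2 fold change of 0.20, and Acss2, which makes acetyl-CoA from acetate, had 0.25. Of the other enzymes related to the cycle, 1 of 3 tested did so, Dhtkd1, a dehydrogenase of lysine breakdown akin to Ogdh, with -0.17, and Pck2, the mitochondrial PEP carboxykinase, had 0.074.

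Of 8 tested regulators known to act on these genes, 1 had an unadjusted edgeR p under 0.05. Hif1a, a subunit of the hypoxia-inducible factor known to induce Pdk1 and Ldha, averaged 61.4 ± 1.3 FPKM in mitochondria libraries and 65.6 ± 1.4 FPKM in control libraries (SD, n = 3 each; edgeR adjusted p = 0.348). Esrra, an orphan receptor known to drive genes of oxidative metabolism, had 10.2, 9.41 and 9.33 FPKM in mitochondria libraries, against 5.18, 7.31 and 9.10 FPKM in control libraries. Its groups did not overlap, though control replicate 3 came near, and the fold of 1.33 had a 95% interval of 0.964 to 1.83 (edgeR adjusted p = 0.431). For assembly factors of complex II, 0 of 4 tested genes reached an unadjusted edgeR p under 0.05 (Sdhaf1 0.18 and Sdhaf2 -0.15 in log2 fold change). For lipoate synthesis and attachment it was 0 of 6, with Mcat at 0.11 and Lipt1 at -0.64 from a mean of 1.25 FPKM. For carriers of citrate, malate and aspartate it was 0 of 5, with Slc25a13 at -0.10 and Slc25a10 at 0.078. DESeq2 called 0 in each of these 3 lists.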

How the data were processed

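RNA sequencing of bEnd.3 cells gave 6 libraries, 3 per group, grouped by the treatment label. The library kit preserved strand and selected mRNA, per the labels' protocols. Cutadapt 1.9, HISAT2 2.2.1, StringTie 2.1.6, DESeq2, edgeR and GRCm38 are named without roles, per the submitters' processing notes. The deposited table holds estimated counts and FPKM for 55401 genes. The authors' estimated counts are whole numbers, of which 36.6% of those from 1 to 20 are multiples of 4. An even spread over those numbers would give 1 in 4, and most small counts are not such multiples. A fragment may thus give about 4 counts, and the depth in fragments may be below the totals, but this is not settled. FPKM was scaled to length and depth by the authors, per the file headers. Genes with a mean FPKM of at least 1 were tested (12774) with edgeR 4.0.16 in R 4.3.3 (quasi-likelihood, TMM factors of 0.996 to 1.007, no covariate, Benjamini-Hochberg over all genes, called under 0.05), first tested on simulated data. CPM is the count scaled to library size after TMM. DESeq2 1.42.0, limma 3.58.1 on log2(FPKM + 1), other scalings and filters, and leaving out each library were alternatives.

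Replicate numbers are shared by the groups. Deviations from the group means correlated at 0.155, 0.101 and 0.231 between same-numbered libraries and at -0.216 to 0.084 between others, so the numbers may pair the libraries, from the data and not the labels. The main fit, which gave the folds, intervals and edgeR p-values of single genes, did not use this pairing. The replicate block, which does use it, was an alternative. Nothing says that replicates were separate cultures, so p-values may measure technical spread only. The genes and lists were chosen with earlier results of these data known. Values per library are given for the gene with the smallest p and the one with the highest mean FPKM of each role, all kinases, and the 8 smallest p over all; of each neighbouring list up to 2 genes with the smallest p are named, apart from a result that is not reported here. Copies were sought among GENCODE transcripts with blastn 2.17.0 (at least 95% identity over 200 bases). Protein sequences were not used here.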

Additional observations from a re-analysis of the deposited data

How the results depend on the processing

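Of 679 fold changes of single genes under 19 alternatives, 656 kept their direction and their side of the threshold, 22 turned sign and 1, Pdk1 under DESeq2 (adjusted p = 0.0493), passed it; the lowest adjusted p under any edgeR or limma setting was 0.19. The sign turned for 13 genes, in each only when 1 library was left out, over log2 ranges of -0.077 to 0.096 (Mpc2), -0.020 to 0.10 (Pdk2), -0.059 to 0.12 (Pdp1), -0.10 to 0.047 (Pdp2), -0.013 to 0.042 (Idh1), -0.15 to 0.0061 (Idh3g), -0.089 to 0.0088 (Ogdh), -0.024 to 0.061 (Dlst), -0.059 to 0.067 (Suclg1), -0.017 to 0.11 (Sdhd), -0.0034 to 0.024 (Fh1), -0.079 to 0.14 (Mdh1) and -0.12 to 0.053 (Mdh2). Genes of the pathway called numbered 1 with DESeq2 and 0 otherwise, the replicate block included. Over all genes, 21 were called, against 360 with DESeq2, 8 at a mean FPKM of at least 5, 6 without acinar and hepatocyte genes, 0 with the replicate block (2153 at an unadjusted p under 0.05) and 1 to 27 when a library was left out, with 1 without control replicate 1 and 12 without control replicate 3; the causes were not tested. Leaving out a library gave medians of -0.062 to -0.0068 over the 36 genes, 9 to 17 positive ones, and 10 to 15 non-overlapping ones (fewer libraries overlap less), 15 of them without control replicate 2. At an unadjusted p under 0.05 there were 3 to 5 with a library left out, 3 of them without mitochondria replicate 1. Scaling by total count moved the median of all genes to 0.0087 and that of the 36 to -0.033. Counts were lowest for Pdk4, Mpc1, Pdp1 and Pdp2, but the largest standard errors were those of Suclg2 (0.24) and Me1 (0.17).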

Other observations

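Some pairs of enzymes in different compartments or with different cofactors kept their proportions only loosely. The FPKM ratio of cytosolic Mdh1 to mitochondrial Mdh2 was 0.775, 0.907 and 0.709 in mitochondria libraries and 0.66, 1.04 and 0.666 in control libraries. That of Me1 to Me2 was 5.95, 5.15 and 6.77 in mitochondria libraries and 4.20, 6.83 and 4.19 in control libraries. In control libraries replicate 2 was the highest for both ratios. Suclg2 to Sucla2, the subunits that decide between GTP and ATP, stood at 1.20, 1.25 and 0.876 in mitochondria libraries and at 1.26, 0.705 and 0.812 in control libraries, while the 2 together relative to Suclg1 ranged over 0.966 to 1.11 and over 0.826 to 1.20. These ratios were not tested.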
